A study of Mus musculus with 12 samples.

Results

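The imprinted growth genes of distal chromosome 7 were followed across 8 chromatin libraries of mouse embryonic stem cells. They were 5 genes, H19, Igf2, Kcnq1ot1, Cdkn1c and Phlda2, of the 47038 autosomal genes in the reference table, together with the H19-Igf2 control region at chr7:142579001-142583000. Each gene was read as the 1 kb bins that overlap its body with 5 kb on either side, which gave 162 of the 2725549 bins of the matrix. The windows held 14 bins for H19, 27 for Igf2, 94 for Kcnq1ot1, 14 for Cdkn1c and 13 for Phlda2, and the 4 bins of the control region lie inside the H19 window.

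The series mapped GZF1, a zinc-finger protein that binds DNA, by chromatin immunoprecipitation (ChIP) from formaldehyde-fixed chromatin cut with micrococcal nuclease. The Cas9-GFP line gave 6 of the libraries analysed: wild type with anti-GZF1, a control with anti-GZF1, a Gzf1 knockout with anti-GZF1, a clone (number 35) overexpressing Gzf1-Flag with anti-FLAG, wild type with an antibody to the active histone mark H3K27ac, and input chromatin taken without antibody. The RGM line, a 129xCAST hybrid, gave wild type with anti-GZF1 and a Gzf1-Flag overexpressing clone (number 56) with anti-FLAG. Gzf1-Flag was expressed ectopically in clones that the labels call overexpressing, so the anti-FLAG libraries read a tagged protein. Its amount beside that of natural GZF1 was not measured in the libraries used here. The labels do not say how the control differs from the wild type or whether the knockout is 1 clone. The remaining 4 libraries of the series, V6.5 with and without Gzf1-Flag and allele-specific RGM libraries with and without it, all with anti-FLAG, were not analysed here. There is thus no anti-FLAG library from cells lacking the tag, RGM has no input of its own, and no value is split by allele. Each library is the single library of its group, so there is no test between groups, and the intervals printed are 95% intervals of counting error only.

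Imprinted genes are expressed from the allele of only the mother or the father. At the H19-Igf2 locus a control region, methylated on the paternal copy, binds the insulator protein CTCF on the maternal copy and so decides between the maternally expressed RNA H19 and the paternally expressed growth factor gene Igf2. Farther along the chromosome, the KvDMR1 holds the promoter of Kcnq1ot1, a long non-coding RNA made from the paternal copy that silences its neighbours there. Cdkn1c, which encodes the cell-cycle inhibitor p57KIP2, and Phlda2, which encodes a pleckstrin-homology protein that restrains growth of the placenta, are both expressed from the maternal copy.

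The sequences just upstream of 3 starts are shown because the highest bins of their genes in the wild-type anti-GZF1 libraries overlap them. Those of Kcnq1ot1 and Phlda2 lie wholly inside that bin. Of the Igf2 line only the first printed bases do, and the rest lies in the next bin down, from 142658001. RefSeq promoters (GRCm38.p6, the assembly of mm10) were given for 3 of the 5 genes, all on the minus strand, with 4 starts for Igf2 numbered from the highest coordinate down. Each line gives the 250 bases before the start, 5′ to 3′, with CpG dinucleotides, the target of DNA methylation, in capitals.
Kcnq1ot1, chr7:143296548-143296797, minus strand: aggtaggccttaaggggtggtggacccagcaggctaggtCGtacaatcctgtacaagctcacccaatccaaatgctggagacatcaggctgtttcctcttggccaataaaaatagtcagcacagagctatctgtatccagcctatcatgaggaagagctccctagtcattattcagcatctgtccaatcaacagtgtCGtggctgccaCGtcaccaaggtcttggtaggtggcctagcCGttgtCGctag
Phlda2, chr7:143502525-143502774, minus strand: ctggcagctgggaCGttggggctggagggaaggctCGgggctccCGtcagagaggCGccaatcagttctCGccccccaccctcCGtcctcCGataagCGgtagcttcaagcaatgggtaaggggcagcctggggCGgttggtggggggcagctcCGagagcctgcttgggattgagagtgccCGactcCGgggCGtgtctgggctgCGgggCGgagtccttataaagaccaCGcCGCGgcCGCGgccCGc
Igf2 start 3, chr7:142658805-142659054, minus strand: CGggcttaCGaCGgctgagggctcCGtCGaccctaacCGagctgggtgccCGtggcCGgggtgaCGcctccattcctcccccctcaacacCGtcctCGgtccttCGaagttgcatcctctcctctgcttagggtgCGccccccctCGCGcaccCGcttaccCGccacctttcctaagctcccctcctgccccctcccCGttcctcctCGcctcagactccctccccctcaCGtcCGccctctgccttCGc

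The promoters differed most in CpG. Phlda2 had 21 CpG in these 250 bases and Igf2 start 3 had 22, against 5 for Kcnq1ot1. Over the full 300 bases of the RefSeq window the counts were 26, 24 and 9, beside a median of 7 over 32851 promoters. Igf2 start 1, the outermost, at position 142666816, had 2 CpG in 300 bases. The motif TGCCGC, bound by the imprint-maintaining protein ZFP57 when methylated, was found on either strand once in the promoter of Igf2 start 2 (position 142661271) and in none of the other 5 windows. The motif TGCGCG, the beginning of the published GZF1 consensus, was found once in the promoter of Igf2 start 3. It lies in the part outside the highest wild-type bin of Igf2. Of all promoters of that length 11.6% held TGCCGC and 12.6% held TGCGCG, and the 2 motifs were found in different windows.

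Library depth ran from 10.1 M reads in the input and 21.8 M reads in RGM wild type to 94.2 M reads in control cells. Values below are read densities, the reads per bin divided by the autosomal mean of the same library, so 1 is the autosomal average. Where a pair of values follows an antibody, the first is from Cas9 and the second from RGM. The control and knockout libraries stood apart from the others in 2 ways. Their median density over the X chromosome was 0.964 and 0.820, against 0.348 to 0.640 in the other 6 libraries. The surrounding 1 Mb of the growth genes lay at 1.02 to 1.14 in them, against 1.20 to 1.61 in the other 6. The labels assign both to the Cas9-GFP line, and whether they share their line or culture history with the other Cas9 libraries was not tested. The part of these differences in the comparisons that use the control was not tested. As a check on the cells, the median H3K27ac density was 1.97 over the windows of 9 embryonic stem cell markers, 1.13 over 6 fibroblast markers, 1.16 over 7 genes of differentiated tissues and 1.21 over all autosomal genes. The input gave 1.80, 1.19, 1.14 and 1.21, so most of this contrast was present without antibody and the check does not establish the cell type.

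No bin of the 5 genes or the control region reached the anti-FLAG density of the peak between Dlk1 and Meg3, and few stood above their surroundings. A bin was called over its surroundings when log2((density + 0.5)/(background + 0.5)) reached 1, taking as background the median over 10 kb to each side. At a background of 1 this takes a density of 2.5. With anti-FLAG 0 of the 162 bins were called in Cas9, where 0.231% of all autosomal bins were, and 2 in RGM, where 0.529% were. With wild-type anti-GZF1 1 bin was called in Cas9, against 0.482% of all bins, and 8 in RGM, against 2.32%. The RGM wild-type library thus had 4.94% of these bins called, at a depth of 8.61 reads per bin, and the part of depth was not tested. The control and the knockout had 0 called bins each, against 0.0398% and 0.045% of all bins. H3K27ac had 2, against 0.545%, and the shallow input had 17, against 7.48%, at 3.93 reads per bin.

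Against the Cas9 input no bin of these genes was called in any of the 7 ChIP libraries. The rule was a log2 ratio to input, with 0.5 added to each density, of 2 or more in bins whose input lay between 0.25 and 3 times its mean, which 142 of the 162 bins met. Of all such autosomal bins 0.0201% were called with anti-FLAG in Cas9 and 0.0505% in RGM. For wild-type anti-GZF1 they were 0.0311% in Cas9 and 0.183% in RGM, and they were 0.0224% in control cells, 0.0267% in knockout cells and 0.0323% for H3K27ac. A count of 0 in 142 bins is near these background shares and is not a result about the genes.

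The gene windows were ranked by level. In Cas9 anti-FLAG the density was 2.12 (1.98 to 2.28) at Cdkn1c and 2.08 (1.93 to 2.23) at Phlda2, followed by 1.74 (1.64 to 1.84) at Igf2 and 1.65 (1.53 to 1.79) at H19. The control region was at 1.51 (1.29 to 1.77) and Kcnq1ot1 at 1.16 (1.12 to 1.20). Cdkn1c and Phlda2 overlapped within counting error, as did Igf2 with H19 and H19 with the control region, and the interval of Kcnq1ot1 lay below all of them. In RGM anti-FLAG the order was the same, at 2.73, 2.35, 1.96, 1.84, 1.43 and 1.19, and there the interval of Cdkn1c (2.57 to 2.91) lay wholly above that of Phlda2 (2.19 to 2.52), while the control region (1.22 to 1.68) and Kcnq1ot1 (1.15 to 1.24) overlapped. The input had the same first 2 genes, at 2.31 for Cdkn1c and 2.16 for Phlda2, and the same lowest, at 1.15 for Kcnq1ot1. Accordingly the log2 ratio of the anti-FLAG windows to input lay between −0.16 at the control region in RGM and 0.20 at Cdkn1c in RGM.

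**Figure D1:**
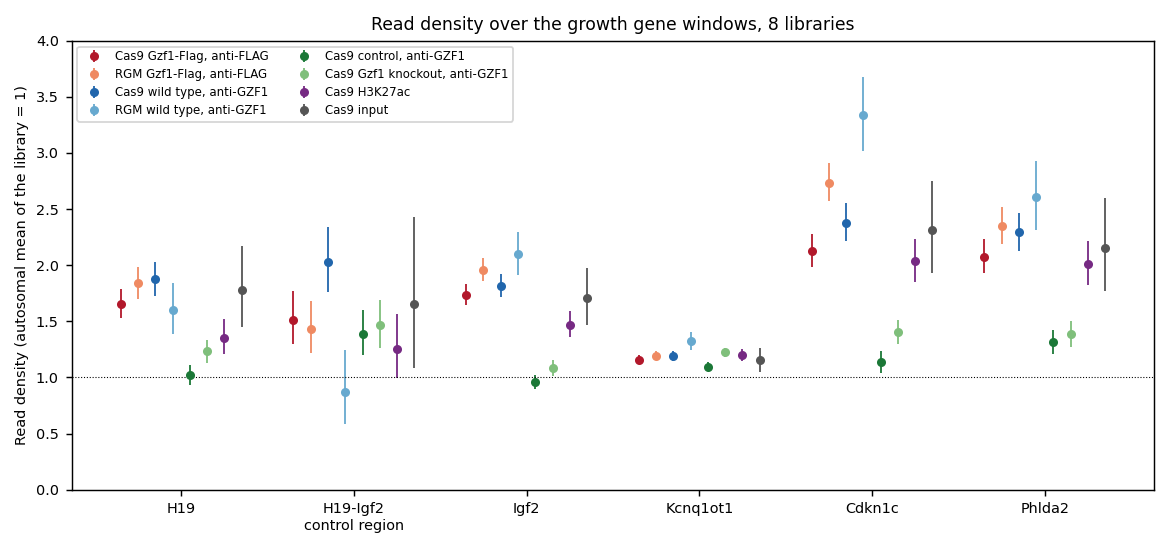
Read density (autosomal mean of each library = 1) over the 5 gene windows and the H19-Igf2 control region in the 8 libraries; points are values of single libraries and bars 95% exact Poisson intervals. Cdkn1c and Phlda2 are highest in 6 libraries, the control (dark green) and knockout (light green) lie between 0.961 and 1.47 throughout, and Kcnq1ot1 lies between 1.10 and 1.33 in all 8.

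The H19 window surrounds the maternally expressed non-coding RNA at 142575530 to 142578146. It was within counting error of its surroundings in Cas9 anti-FLAG and slightly above them in RGM anti-FLAG. Its density was 1.65 in Cas9 and 1.84 in RGM anti-FLAG, 1.87 and 1.60 with endogenous GZF1 pulled down from wild-type Cas9 and RGM cells, 1.02 in control cells, 1.23 in knockout cells, 1.35 for H3K27ac and 1.78 in the input. Set against the median over 50 kb to each side, this was 1.05-fold (0.973 to 1.14) and 1.14-fold (1.05 to 1.22) with anti-FLAG. It was 1.29-fold and 1.07-fold with anti-GZF1 in wild type, and 1.40-fold in the input. The same quantity had medians of 1.05 and 1.07 over all autosomal genes with anti-FLAG, and 49.8% and 36.7% of those genes exceeded H19. The input thus had the highest fold of the 8 libraries at H19.

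The bin of H19 that led by the lower of the 2 anti-FLAG values over local background, 142577001 to 142578000, lies inside the gene body next to its upper end. It held 82.6 reads (density 3.04) in Cas9 and 61.9 reads (2.34) in RGM anti-FLAG, 62.85 (2.67) and 13 (1.51) with anti-GZF1 in wild type, 38 (1.06) in control cells and 40.7 (1.24) in knockout cells. Reads that cross a bin edge were split, hence the fractions. H3K27ac had 26.15 reads (1.65) there and the input 14 reads (3.57, 1.95 to 5.98), so the highest density in this bin was that of the input. The neighbouring bin from 142578001, which led the window by the lower of the 2 wild-type values over local background, was at 2.45 in Cas9 and 2.44 in RGM wild type and at 2.33 and 2.01 with anti-FLAG, with 2.69 for H3K27ac and 0.764 from 3 reads in the input. Over the 4 kb around the upper end of H19 the fold over the bins within 10 kb was 1.45 in Cas9 and 1.11 in RGM anti-FLAG and 1.45 and 1.01 in Cas9 and RGM wild type, and both RGM intervals held 1.

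The H19-Igf2 control region gave the largest difference between lines among these windows. Its 4 bins held 164.75 reads (density 1.51) in Cas9 and 151.75 reads (1.43) in RGM anti-FLAG. With wild-type anti-GZF1 they held 191.65 reads (2.03, 1.76 to 2.34) in Cas9 and 30 reads (0.871, 0.588 to 1.24) in RGM. The control had 198.6 reads (1.39), the knockout 193.2 (1.47), H3K27ac 79.75 (1.26) and the input 26 (1.66). RGM wild type was the only library below 1. Its interval lay below those of Cas9 wild type, Cas9 anti-FLAG (1.29 to 1.77) and the knockout (1.27 to 1.69). It overlapped those of the control (1.20 to 1.60), RGM anti-FLAG, H3K27ac and the input.

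Relative to the surrounding 1 Mb the RGM to Cas9 ratio of the control region in wild-type anti-GZF1 was 0.421 (0.276 to 0.619). Of 45154 autosomal gene windows 0.472% had a lower ratio. Gene windows carry 5 kb on either side and are longer than the 4 bins here. Ratios of 4 kb windows were not ranked, so this share cannot show how rare the value is among windows of its own size. With anti-FLAG the ratio of the same lines was 0.900 (0.717 to 1.13), an interval that holds 1 and does not overlap the first, though the difference between antibodies was not tested. In RGM wild type 3 of the 4 bins were below 1, with 5 reads (0.581) in the bin from 142581001 and 15 reads (1.74) in the bin from 142580001. RGM carries CAST alleles whose reads were aligned to mm10, and the part of alignment or of the low depth of this library was not tested.

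The local folds at the control region were 0.960 and 0.862 with anti-FLAG, 1.40 and 0.577 with anti-GZF1 in wild type of the same lines, 1.49 in control cells, 1.46 in knockout cells, 1.03 for H3K27ac and 1.30 in the input. In the control 0.619% of all autosomal 4 kb windows were higher, in knockout cells 0.956% and in Cas9 wild type 7.66%. The intervals of Cas9 wild type (1.21 to 1.61) and the input (0.849 to 1.90) hold the values of both. The knockout to control ratio relative to 1 Mb was 0.998 (0.812 to 1.22), so the anti-GZF1 density here did not differ between knockout and control beyond counting error. With anti-FLAG 61.0% of 4 kb windows in Cas9 and 75.6% in RGM were higher than the control region.

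Igf2, the paternally expressed fetal growth factor at 142650768 to 142666816, stood above its surroundings in 6 libraries and near them in control and knockout cells. Window density was 1.74 in Cas9 and 1.96 in RGM anti-FLAG, 1.82 and 2.10 with anti-GZF1 in wild type, 0.961 in control cells, 1.08 in knockout cells, 1.47 for H3K27ac and 1.71 in the input. Local folds were 1.26 and 1.42 with anti-FLAG, 1.53 and 1.76 with anti-GZF1 in wild type, 1.01 in control cells, 1.06 in knockout cells, 1.30 for H3K27ac and 1.34 in the input. Of all autosomal genes 4.26% were higher in Cas9 wild type, 59.0% in control cells. The anti-FLAG and wild-type anti-GZF1 libraries did not overlap the control or the knockout in density, and the input lay among them.

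Within Igf2 the highest bin lay in the 4 kb around start 3 in RGM anti-FLAG, both wild types and H3K27ac. It lay elsewhere in Cas9 anti-FLAG, the input, control cells and knockout cells. The CpG-rich sequence upstream of start 3 is printed above. The bin 142659001 to 142660000 held 91 reads (3.86, 3.11 to 4.74) in Cas9 and 52.7 reads (6.12, 4.61 to 8.05) in RGM wild-type anti-GZF1, against 26.45 (0.739) in control cells and 29.85 (0.906) in knockout cells. Anti-FLAG gave 54.8 reads (2.01) in Cas9 and 94.25 reads (3.56) in RGM, H3K27ac 36.15 (2.28) and the input 8 (2.04). Only RGM wild type passed the call over local background, at a log2 value of 1.45, and 0.496% of autosomal bins were higher there. The bin was picked as the one leading by the lower wild-type value, so those values are selected maxima, and anti-FLAG in Cas9 was at 1.20 times local background in it. The bin that led Igf2 by the lower of the 2 anti-FLAG values over local background, from 142657001, held 68 reads (2.5) in Cas9 and 81.95 reads (3.10) in RGM, with 13.55 reads (3.45) in the input.

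Over 4 kb around each start the Igf2 promoters differed among themselves. At start 1, whose promoter has few CpG, the fold over the bins within 10 kb was 1.17 and 0.950 with anti-FLAG and 0.923 and 0.727 with anti-GZF1 in wild type. At start 3 it was 1.37 and 1.73 with anti-FLAG and 1.78 and 2.31 with anti-GZF1 in wild type, 1.11 in control cells, 1.14 in knockout cells, and 1.71 for both H3K27ac and the input. Start 2 was at 1.40 and 1.32 with anti-FLAG and 1.58 and 1.96 with anti-GZF1 in wild type. The windows of starts 2 and 3 share bins, as do those of starts 3 and 4, so these are not separate measurements.

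Kcnq1ot1, the long non-coding RNA at 143213111 to 143296547, lay near the autosomal mean over its body. Anti-FLAG gave window densities of 1.16 and 1.19, beside 1.19 and 1.33 with anti-GZF1 in wild type, 1.10 in control cells, 1.22 in knockout cells, 1.20 for H3K27ac and 1.15 in the input. The local fold was 1.13 in Cas9 and 0.914 (0.881 to 0.947) in RGM anti-FLAG, and 1.17 and 1.13 with anti-GZF1 in wild type. It was higher in control cells (1.20), knockout cells (1.25) and for H3K27ac (1.45), where 6.09%, 4.01% and 6.56% of all genes exceeded it, and 1.13 in the input. Over the surrounding 1 Mb the control was at 1.03, the knockout at 1.08 and H3K27ac at 0.991. The other libraries ran from 0.780 in RGM anti-FLAG to 0.869 in RGM wild type. The reach of the background was not varied for the control, the knockout or H3K27ac. The Cas9 anti-FLAG value depends on how far the background reaches: within 100 kb it was 0.984, and that of RGM wild type 0.951. Over the 94 bins the median density in Cas9 anti-FLAG was 1.17, with a lowest bin of 0.386 and a highest of 3.16.

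The exception was the start of Kcnq1ot1 in the KvDMR1. The bin 143296001 to 143297000, which contains the start and the sequence printed above, was the highest of the window in 6 of the 8 libraries. It held 86 reads (3.16) in Cas9 and 57.7 reads (2.18) in RGM anti-FLAG, 77.45 (3.28) and 40 (4.65) with anti-GZF1 in wild type, 79.2 (2.21) in control cells and 88 (2.67) in knockout cells. H3K27ac had 49.2 reads (3.10) and the input 9.55 (2.43). Over local background the bin was at 2.23-fold and 1.54-fold with anti-FLAG, 2.35-fold and 2.82-fold with anti-GZF1 in wild type, 2.02-fold in control cells, 2.01-fold in knockout cells, 2.14-fold for H3K27ac and 2.18-fold in the input. All 8 libraries, the knockout and the input among them, thus stood at 1.54-fold or more at this bin, and only RGM wild type passed the call, at a log2 value of 1.26.

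Among the bins named here the control and the knockout stood highest over local background at the Kcnq1ot1 start. There 0.199% of autosomal bins were higher over local background in control cells and 0.179% in knockout cells, against 0.317% in Cas9 anti-FLAG and 6.21% in RGM anti-FLAG. A bin that the naming rule did not pick was higher in both, the Phlda2 bin from 143506001. Its density was 2.49 in control cells and 2.83 in knockout cells. The highest log2 values over local background were 0.825 and 0.923 in the Phlda2 window, against 0.767 and 0.792 in that of Kcnq1ot1. Over the 4 kb around the start the knockout to control ratio relative to 1 Mb was 1.15 (0.952 to 1.40). That interval covers counting error only. The same 4 kb stood at 2.06 times the bins within 10 kb in the input and at 1.51 times for H3K27ac. The ratio therefore cannot show how much of the density is GZF1 or whether any GZF1 was lost.

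Cdkn1c, the maternally expressed inhibitor of cyclin-dependent kinases at 143458339 to 143461059, had the highest density of the 5 genes in 7 libraries, the exception being the control, where Phlda2 was higher. It was 2.12 and 2.73 with anti-FLAG, 2.38 and 3.34 with anti-GZF1 in wild type, 1.13 in control cells, 1.40 in knockout cells, 2.03 for H3K27ac and 2.31 in the input. Local folds were 1.46 and 1.54 with anti-FLAG, 1.74 and 2.04 with anti-GZF1 in wild type, 1.15 in control cells, 1.26 in knockout cells, 1.76 for H3K27ac and 1.51 in the input. Of all autosomal genes 3.84% were higher in Cas9 and 4.59% in RGM anti-FLAG, and 1.97% in Cas9 wild-type anti-GZF1. In density the input (1.93 to 2.75) overlapped both anti-FLAG libraries and H3K27ac (1.85 to 2.23) overlapped Cas9 anti-FLAG, while the control and knockout lay below all the others.

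The upper end of Cdkn1c held most of its called bins. The bin 143461001 to 143462000 held 93.05 reads (3.42) and 100.3 reads (3.79) with anti-FLAG, 95.15 (4.03) and 58.55 (6.80) with anti-GZF1 in wild type, 50.55 (1.41) in control cells, 60.05 (1.82) in knockout cells, 50.05 (3.15) for H3K27ac and 7 (1.78) in the input. It was the only bin of the 5 genes called in Cas9 wild type, at a log2 value of 1.01. The bin below it, from 143460001, was called in RGM anti-FLAG with 140.8 reads (5.32), where the input was at 3.31. RGM wild type had 4 called bins at Cdkn1c, with densities of 5.46 to 6.80, and H3K27ac had 2. In the next bin down, from 143459001, the input itself reached 6.11 from 24 reads, beside 4.61 for H3K27ac and 6.73 in RGM wild type.

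Over 4 kb around the upper end of Cdkn1c the fold over the bins within 10 kb was 1.91 and 2.0 with anti-FLAG, 2.20 and 2.76 with anti-GZF1 in wild type, 0.969 in control cells, 1.28 in knockout cells, 2.27 for H3K27ac and 2.18 in the input. Of all 4 kb windows 1.01% were higher in Cas9 anti-FLAG, 0.827% for H3K27ac and 61.0% in control cells. At the lower end of the gene the anti-FLAG folds were 1.11 and 1.18. The tables used give no strand for Cdkn1c or H19, so both ends are reported. The density of the upper end was thus shared by the anti-FLAG, wild-type anti-GZF1, H3K27ac and input libraries of the Cas9 line and was not seen in its control.

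Phlda2, the maternally expressed placental growth regulator at 143501545 to 143503145, followed the same order of libraries. In its window anti-FLAG gave densities of 2.08 and 2.35, against 2.29 and 2.61 with anti-GZF1 in wild type, 1.31 in control cells, 1.38 in knockout cells, 2.01 for H3K27ac and 2.16 in the input. The local fold was smaller than at Cdkn1c in 7 libraries and larger in the control, at 1.27 and 1.36 with anti-FLAG, 1.37 and 1.5 with anti-GZF1 in wild type, 1.21 in control cells, 1.18 in knockout cells, 1.33 for H3K27ac and 1.35 in the input. The bins around Phlda2 were thus high as well, and the 8 folds spanned 1.18 to 1.5.

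The start of Phlda2 held the highest Cas9 anti-FLAG bin of the 162. The bin 143502001 to 143503000, with the start and its CpG-rich promoter, held 107.4 reads (3.95, 3.22 to 4.75) in Cas9 and 131.5 reads (4.97, 4.17 to 5.91) in RGM anti-FLAG. Wild-type anti-GZF1 gave 93.95 reads (3.98) and 42 reads (4.88), the control 56.55 (1.58), the knockout 63.05 (1.91), H3K27ac 56.1 (3.53) and the input 9 (2.29). Over local background this was 2.26-fold and 2.47-fold with anti-FLAG, 2.15-fold and 2.67-fold with anti-GZF1 in wild type, 1.47-fold in control cells, 1.62-fold in knockout cells, 2.16-fold for H3K27ac and 1.06-fold in the input. RGM anti-FLAG and RGM wild type passed the call, and Cas9 anti-FLAG missed it at a log2 value of 0.98. Of all autosomal bins 0.252% were higher in Cas9 and 0.347% in RGM anti-FLAG, and H3K27ac stood at 0.804%.

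**Figure D2:**
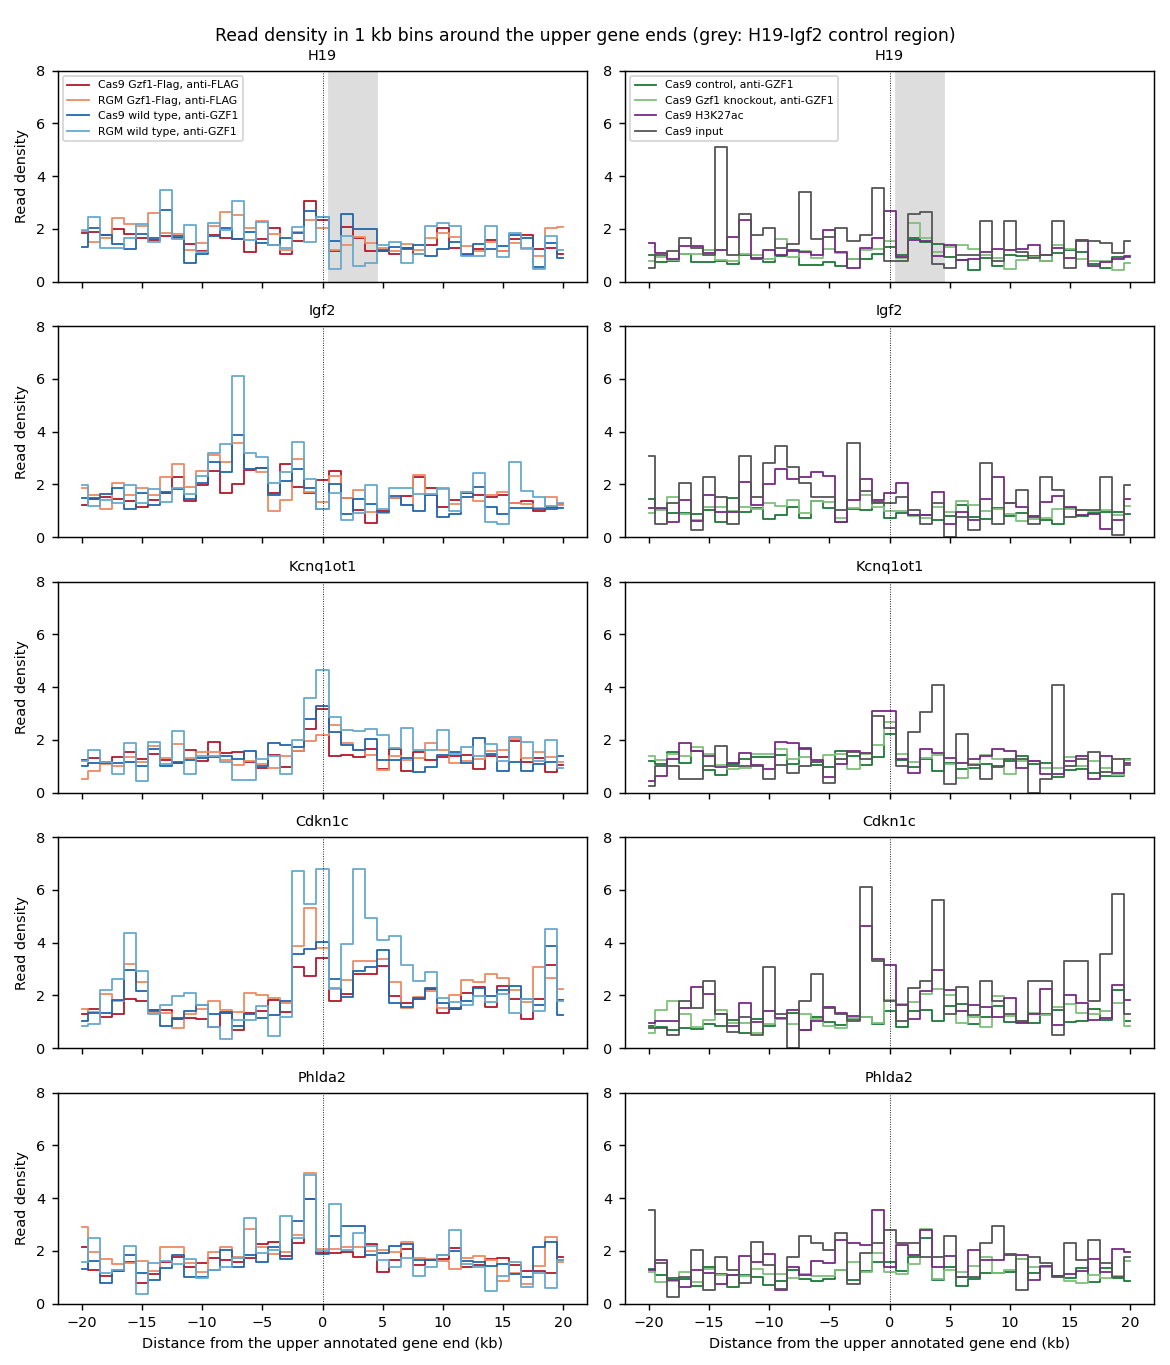
Read density in 1 kb bins within 20 kb of the upper annotated end of each gene (distance in kb toward higher coordinates; autosomal mean of each library = 1), with the anti-FLAG and wild-type anti-GZF1 libraries on the left and control, knockout, H3K27ac and input on the right. The upper end of Cdkn1c is high in the left panels and for H3K27ac and input on the right, the Kcnq1ot1 start bin is at 2.18 or more in all 8 libraries, and the bins of the H19-Igf2 control region (grey) lie between 1.17 and 2.08 with anti-FLAG.

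A bin between the imprinted genes Dlk1 and Meg3, at chr12:109527001-109528000, serves to size these values. It was picked as the bin of that interval leading by the lower of the 2 anti-FLAG values, so its anti-FLAG values are selected maxima. It held 368.5 reads (13.5) in Cas9 and 460.35 reads (17.4) in RGM anti-FLAG, at 12.2 and 10.1 times local background. The corresponding maxima at the growth genes were 2.26-fold and 2.47-fold at Phlda2, the highest lower value among the 5 genes. In the control that bin was at 1.21 times and in knockout cells, with 5 reads, at 0.237 times local background, while the Phlda2 bin was at 1.47 and 1.62 times and the Kcnq1ot1 bin at 2.02 and 2.01 times. The low value in knockout cells at Dlk1-Meg3 therefore had no counterpart in the named bins of the growth genes. It lies well below its own local background and not at it, and the cause of that was not tested.

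The knockout was set against the control, both with anti-GZF1, as a ratio relative to that of the surrounding 1 Mb. The control itself had 0 called bins here, and its gene windows stood at 1.01-fold (Igf2) to 1.21-fold (Phlda2) over local background. With so little density above the surroundings to lose, a ratio near 1 cannot show whether GZF1 was bound at these genes. No growth gene had an interval wholly below 1, where 8.15% of 46710 autosomal gene windows did. The ratio was 1.14 (1.01 to 1.29) at H19, 1.06 (0.971 to 1.17) at Igf2, 1.05 (1.00 to 1.10) at Kcnq1ot1, 1.17 (1.04 to 1.31) at Cdkn1c and 0.994 (0.886 to 1.11) at Phlda2. The intervals of H19, Kcnq1ot1 and Cdkn1c lay wholly above 1, as did 8.83% of all gene windows, the lower bound of Kcnq1ot1 at 1.001. H19 stood at 568 against 511 reads and Cdkn1c at 646.75 against 568.05. With 1 library per genotype these intervals hold no variation between cultures, and the intervals of the 24 ratios reported in all were not adjusted for their number.

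Single bins gave more extreme ratios, which are extremes by selection. Among bins with 30 or more control reads the highest was 2.07 (1.37 to 3.19) at Cdkn1c, in the bin from 143465001, with 73.45 reads in knockout cells and 36.25 in control cells. The lowest was 0.480 (0.260 to 0.908) within the Kcnq1ot1 body, in the bin from 143227001, with 16.6 against 35.3 reads. In Kcnq1ot1 74 of 94 bins had enough control reads to be ranked. At the gene starts and ends every knockout to control interval held 1, from 0.887 at the lower end of Cdkn1c to 1.25 at Igf2 start 4.

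The lines were compared with the same antibody, RGM over Cas9. With anti-FLAG the ratio relative to 1 Mb was 1.14 (1.04 to 1.26) at Cdkn1c and 0.926 (0.880 to 0.975) at Kcnq1ot1, and the intervals of H19 (1.06), Igf2 (1.07) and Phlda2 (1.00) held 1. Among all gene windows 20.7% lay wholly above 1 and 17.5% wholly below, so 1 of 5 either way is near the background. Without the regional correction Kcnq1ot1 stood at 1.03. With wild-type anti-GZF1 it was 1.25 (1.10 to 1.41) at Cdkn1c, 1.12 (1.01 to 1.25) at Igf2 and 0.839 (0.710 to 0.988) at H19, where the window includes the control region. Here 17.2% of gene windows lay above and 13% below. Of the reads in the H19 window, 191.65 of 619 in Cas9 wild type and 30 of 193 in RGM wild type lay in the control region. The rest of that window was not compared by itself, so its ratio below 1 cannot be assigned to H19. Kcnq1ot1 (1.00) and Phlda2 (1.01) did not differ beyond counting error, with intervals of 0.932 to 1.08 and 0.875 to 1.16. The interval of Cdkn1c thus lay above 1 with both antibodies, where 86.4% of gene windows had a lower ratio with anti-FLAG and 92.7% with anti-GZF1. Both comparisons set the same 2 lines against each other, so the second is not separate support for the first.

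**Figure D3:**
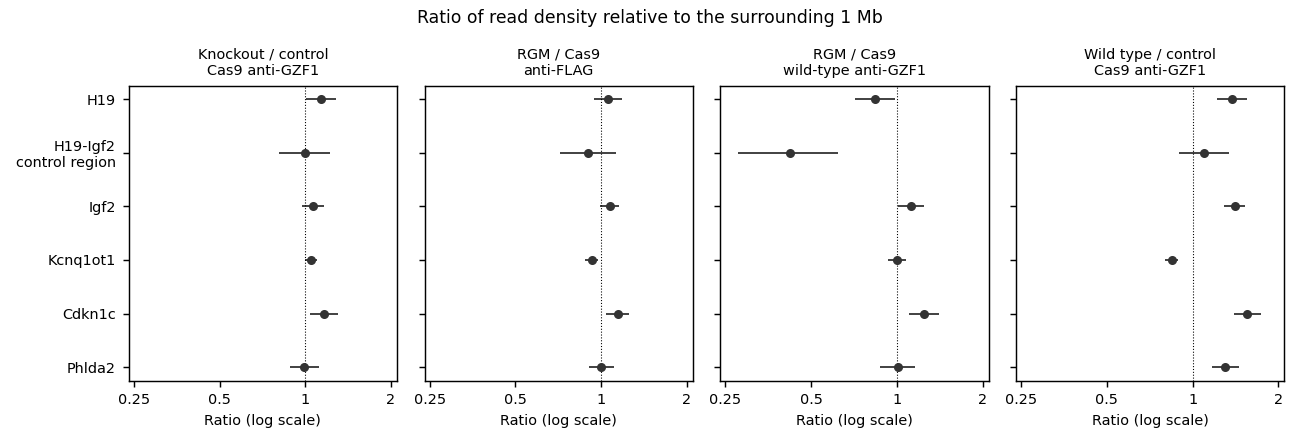
Ratio of read density relative to that of the surrounding 1 Mb (log scale) for 4 pairs of libraries at the 5 gene windows and the H19-Igf2 control region; bars are 95% exact binomial intervals of counting error. The knockout to control ratios lie between 0.994 and 1.17, and the control region is at 0.421 in RGM over Cas9 wild type.

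The wild type of the Cas9 line was set against the same control library, both with anti-GZF1. Relative to 1 Mb the ratio was 1.55 (1.39 to 1.73) at Cdkn1c, 1.40 (1.29 to 1.53) at Igf2, 1.37 (1.22 to 1.55) at H19 and 1.30 (1.17 to 1.45) at Phlda2, and 0.843 (0.802 to 0.887) at Kcnq1ot1. These are 4 of 5 above 1, where 35.4% of all gene windows were, and 1 below, where 20.3% were. Other lists had many above 1 as well, 13 of 23 distal chromosome 7 neighbours, 15 of 18 insulin-like growth factor pathway genes and 8 of 9 stem cell markers. Among fibroblast markers it was 3 of 6 and among genes of differentiated tissues 3 of 7. The 4 of 5 is thus not particular to the growth genes. The control region was at 1.09 (0.892 to 1.34). Without the regional correction Kcnq1ot1 stood at 1.09, so its direction comes from the correction. The flatter profile of the control library, with 0.0398% of all bins called against 0.482% in wild type, moves with these ratios, and its part in them was not tested.

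**Figure D4:**
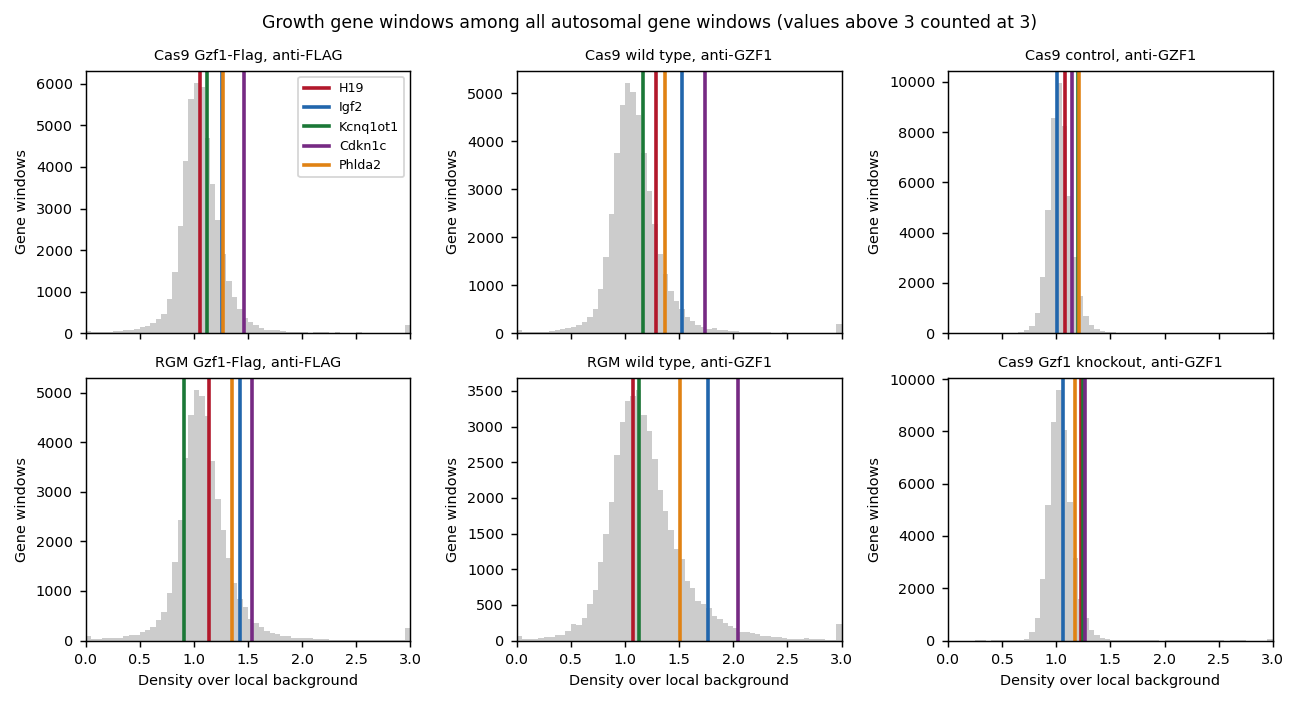
Distribution of window density over local background (median within 50 kb on either side) for 47038 autosomal gene windows in 6 libraries, with the 5 growth genes as vertical lines; counts of windows on the vertical axis. Cdkn1c lies in the upper tail at 1.46 and 1.54 with anti-FLAG, and Kcnq1ot1 lies at 1.20 in the control and 1.25 in the knockout, where 6.09% and 4.01% of genes are higher. Over the surrounding 1 Mb Kcnq1ot1 was at 1.03 in the control and 1.08 in the knockout.

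Neighbouring and related genes were read in the same way. The 23 other genes of distal chromosome 7 had a median local fold of 1.10 in Cas9 and 1.20 in RGM anti-FLAG, against 1.05 and 1.07 over all genes. The highest by the lower of the 2 values was Tspan32, a tetraspanin gene, at 1.27 and 1.25, and the lowest was Tnfrsf23, a decoy receptor gene, at 0.786 and 0.666. In the knockout 3 of the 23 lay below the control, Tspan32 at 0.924, the cation channel gene Trpm5 at 0.897 and Osbpl5 at 0.938, and 2 above, the protease gene Ctsd at 1.12 and Kcnq1, within which Kcnq1ot1 lies, at 1.03. Of all gene windows 8.15% lay below and 8.83% above, and with so few genes these counts are not a result about the neighbours.

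Of 18 genes of the insulin-like growth factor pathway the median fold was 1.09 in Cas9 and 1.16 in RGM anti-FLAG. Igfbp5, a binding protein of the growth factor, was highest by the lower of the 2 values, at 1.48 and 1.44, and the receptor gene Igf1r lowest by it, at 0.926 and 1.13. Relative to control the knockout was lower at Igfbp7 (0.951) and higher at Igfbp2 (1.17), and the other 16 intervals held 1, beside 8.15% of all gene windows below and 8.83% above. Igf2r, the imprinted receptor that clears IGF2, had folds of 1.05 and 1.08.

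The 6 other inhibitors of cyclin-dependent kinases had a median fold of 1.42 in Cas9 and 1.52 in RGM anti-FLAG, near the values of Cdkn1c. Cdkn2a, the gene of the p16 and ARF tumour suppressors, was highest by the lower value, at 2.0 and 2.74, with 2.73 in the input, and Cdkn1a, which encodes p21, was lowest at 0.865 and 0.857. Cdkn2c and Cdkn2d lay below the control in knockout cells at 0.866 and 0.879, beside 8.15% of all gene windows, and none of the 6 lay above, numbers too small to read as a result about the list. The relatives of Phlda2 were at 1.47 and 1.32 for Phlda1 and at 1.06 and 1.13 for Phlda3, and Phlda1 was higher in knockout cells at 1.22 (1.08 to 1.38), beside 8.83% of all gene windows.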

How the data were processed

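The submitters' processing notes name cutadapt, Bowtie2 2.5.4, SAMtools, deepTools and the build mm10, without their settings. What the authors deposited is 1 matrix of estimated counts (expected counts) per 1 kb bin for 8 of the 12 libraries, without scaling to depth. All values were multiples of 0.05. Whether duplicates or reads of low mapping quality were removed is not given in the sources used here.

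Densities are counts over the autosomal mean of the library. Window intervals are 95% exact Poisson. Ratios carry exact Clopper-Pearson intervals on rounded counts and were divided by the ratio of the surrounding 1 Mb, and genes with under 100 reads in both libraries together were left out of the ratio backgrounds. Gene bounds came from the GRCm38.p6 table, which matched all listed genes. The members and lists were chosen with earlier results of these data known. Named were all members and starts, in each window the bin highest in the lower of both lines per antibody, the extreme knockout bins with 30 or more control reads, and in each list the extremes and every gene whose knockout interval excluded 1. Ranks among 4 kb windows were added after the data were seen. The calling code was tested on simulated data. Alternatives were another background reach, the mean as background, pseudocounts of 0.25 and 1, other thresholds, no input filter, no flanks, no regional correction, and scaling or correction by chromosome 7. Depth was 10.1 to 94.2 M reads. Python 3.11.15, numpy 2.4.6, pandas 2.3.3, scipy 1.17.1 and matplotlib 3.10.9 were used.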

Additional observations from a re-analysis of the deposited data

Results flagged for a closer look

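The H19-Igf2 control region stood above its local background in Cas9 wild-type anti-GZF1, at 1.40-fold, and below it in RGM wild-type anti-GZF1, at 0.577-fold. Each value comes from 1 library, and the difference in direction between the lines was not tested. The Kcnq1ot1 window with anti-FLAG was likewise above local background in Cas9, at 1.13-fold, and below it in RGM, at 0.914-fold. That difference was not tested either, and with the background taken within 100 kb both values lay below 1, at 0.984 and 0.811.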

How the results depend on the processing

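Of 187 values recomputed under other settings 126 stayed within their counting interval or within 1.5 times of the count, 57 moved beyond it and 4 changed direction. All 4 were at Kcnq1ot1. With local background within 100 kb its fold became 0.984 in Cas9 anti-FLAG and 0.951 in RGM wild type. Without the regional correction its RGM to Cas9 anti-FLAG ratio became 1.03 and its wild type to control ratio 1.09. For the other values the cause was not tested.

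Without the regional correction the wild type to control ratio was 1.84 at H19, 1.46 at the control region, 1.89 at Igf2, 2.10 at Cdkn1c and 1.75 at Phlda2. The anti-FLAG ratio of RGM to Cas9 was then 1.29 at Cdkn1c and 1.13 at Phlda2, and at Kcnq1ot1 the knockout ratio was 1.12 and the RGM to Cas9 wild-type ratio 1.11. Corrected by chromosome 7, the knockout ratio of Kcnq1ot1 was 1.10, and scaled to chromosome 7 its Cas9 anti-FLAG density was 1.10.

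With the gene body alone, without flanks, local folds were larger. They were 1.26 in Cas9 anti-FLAG and 1.42 in Cas9 wild type at H19. In the order Cas9 and RGM anti-FLAG, then Cas9 and RGM wild type, they were 1.37, 1.58, 1.64 and 2.15 at Igf2, 1.80, 1.91, 2.40 and 2.92 at Cdkn1c, and 1.64, 1.77, 1.74 and 1.79 at Phlda2. With the mean as local background they were smaller, at 1.32, 1.41 and 1.52 at Igf2 and 1.22, 1.23 and 1.26 at Phlda2 for RGM anti-FLAG, Cas9 and RGM wild type, and 1.57 at Cdkn1c in Cas9 wild type. Within 100 kb the folds were 0.811 in RGM anti-FLAG and 1.03 in Cas9 wild type at Kcnq1ot1 and 1.37 in Cas9 anti-FLAG at Phlda2.

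Bins called over local background at a threshold of 0.5 numbered 13 and 8 with anti-FLAG in Cas9 and RGM, 21 and 35 in the 2 wild types, 5 in control cells and 7 in knockout cells, and at 1.5 there were 0 in RGM anti-FLAG and both wild types. A pseudocount of 0.25 gave 2 in Cas9 anti-FLAG, 4 and 13 in the wild types and 1 in knockout cells, and a pseudocount of 1 gave 1 in RGM anti-FLAG and 0 in Cas9 wild type. Background within 20 kb gave 1 in Cas9 anti-FLAG, 4 in Cas9 wild type and 1 in knockout cells. Over input, a pseudocount of 0.25 called 1 bin in Cas9 anti-FLAG and 4 in RGM wild type, and with no input filter 1 was called in control cells and 2 in knockout cells.

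No paired analysis was possible because each group has 1 library, and for the same reason no replicate was left out. The depth of 3.93 reads per bin in the input and 8.61 in RGM wild type limits single bins: 3 reads there are a density of 0.764 and 0.348.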
